A study of Mus musculus with 91 samples.

Results

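The genes described here encode 9 molecules through which regulatory T cells (Tregs) restrain other immune cells: Il10, Tgfb1, Ebi3, Fgl2, Entpd1, Nt5e, Ctla4, Lag3 and Tigit. They were chosen by symbol as known suppressive effectors, and each was present in all 8 deposited count tables and passed the filter on low counts in each of them. They are 9 of 20378 genes found in any table, of which 15554 were in all 8. Tregs keep peripheral tolerance, and mice and people without working Tregs develop multi-organ autoimmunity. They act through secreted cytokines (interleukin-10, TGF-beta1 and interleukin-35, whose beta chain is EBI3), through the ectoenzymes CD39 and CD73, which turn extracellular ATP into adenosine, and through inhibitory receptors that engage antigen-presenting cells. Interleukin-2 (IL-2), signalling through CD25 and STAT5, is the main survival and activation factor of these cells, and a fusion of IL-2 with CD25 (FP below) is a form of the cytokine with prolonged activity.

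Splenic Tregs were sorted from C57/BL6 mice that carry an RFP reporter of Foxp3, and their total RNA was sequenced. The in vivo groups received the fusion protein mIL-2/CD25 (FP; 20 µg in the labels), mouse IL-2 (mIL-2, dose not in the labels) or control PBS. At 1.5 h there were 4 FP, 4 IL-2 and 4 PBS libraries, at 4 h 3 FP, 4 IL-2 and 3 PBS libraries, at 16 h 4 of each, at 72 h 4 FP, 3 IL-2 and 3 PBS libraries, and at 168 h 4 FP and 3 PBS libraries. An in vitro experiment had 3 libraries with IL-2 and 3 with PBS for 1.5 h, and a high-dose experiment had 3 IL-2 and 3 PBS libraries, with neither dose nor time in the labels. A restimulation experiment, read 1.5 h after the last injection per its labels, had 4 libraries of mice given FP and then FP again (repeated FP), 3 of mice given PBS and then FP (single FP) and 3 of mice given PBS and PBS. All groups share the strain and the reporter, and the labels repeat a single treatment text for every sample, so times and groups come from the titles and treatment labels. The labels do not say that replicates were separate mice, so p-values measure the spread between these libraries only. These are bulk libraries, in which fewer cells of a type and less RNA per cell cannot be told apart.

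The 91 samples made 75 libraries, of which 73 could be assigned. The 2 others, both at 4 h, carry a title that names one treatment and an injected-molecule label that names the other (FP or PBS), and they entered no comparison. Library totals ran from 12212262 to 46108114 counted reads. The spread between libraries of a group, as a biological coefficient of variation, was 4.48% in vitro, 11.2% at 16 h, 16.0% at 72 h and 16.3% at 1.5 h, against 19.9% at 168 h, 27.0% on restimulation, 38.4% at 4 h and 40.7% at high dose. All 8 Treg markers (Foxp3, Il2ra and Ikzf2 among them) were measured in every table, with a summed level of 3449 to 7471 CPM (reads of a gene scaled to the library's total). Markers of B cells summed to 21.1 to 75.1 CPM and of conventional T cells to 7.72 to 41.6 CPM, while myeloid markers were more variable (23.3 to 2112 CPM) and are given below beside the results they move with. Levels are CPM with TMM scaling within each table, replicates in label order, and a gene was called changed at an adjusted p below 0.01 (edgeR quasi-likelihood test, Benjamini-Hochberg over all genes of a table).

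Per kilobase of exon, the median over the 23 in vivo PBS libraries was 59.4 CPM per kb for Tigit, 39.7 for Nt5e, 37.2 for Ctla4 and 34.9 for Tgfb1. It was 11.2 CPM per kb for Entpd1, 8.57 for Lag3, 7.84 for Fgl2, 6.69 for Ebi3 and 5.18 for Il10. At baseline the set thus held 4 genes at a high level and 5 at a low one, on the length-adjusted scale and across tables that were normalised separately. On GRCm38 with GENCODE M21, the cytokine and secreted genes are Il10 (chr1:131019845-131024974, + strand), Tgfb1 (chr7:25687002-25705077, +), Ebi3 (chr17:55952640-55957022, +) and Fgl2 (chr5:21372642-21378374, +). The ectoenzymes are Entpd1 (chr19:40612366-40741602, +) and Nt5e (chr9:88327197-88372092, +), and the receptors are Ctla4 (chr1:60887000-60915832, +), Lag3 (chr6:124904361-124911705, - strand) and Tigit (chr16:43648867-43664146, -). Ebi3 shares 270 of its 1154 exonic bases with the antisense gene Gm16712. The sources used here do not state whether counting used strand, so how reads in the shared bases were counted is not known.

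The promoter windows of Fgl2, Ctla4 and Tigit are printed because these 3 members rose together 72 h after FP, in calls kept whichever single library was left out; they come from RefSeq (GRCm38.p6) and are written 5′ to 3′. Each window ends at the RefSeq start, except that of Fgl2, which stops at the end of the match. Capitals mark TTCNNNGAA, the palindromic core that STAT5 and other STAT factors bind, searched as these letters and so the same on both strands.
Fgl2, chr5:21372423-21372645, +: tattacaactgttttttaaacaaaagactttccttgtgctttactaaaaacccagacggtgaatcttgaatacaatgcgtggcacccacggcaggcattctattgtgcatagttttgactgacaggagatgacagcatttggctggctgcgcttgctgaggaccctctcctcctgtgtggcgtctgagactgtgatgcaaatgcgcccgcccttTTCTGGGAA
Ctla4, chr1:60908775-60909024, +: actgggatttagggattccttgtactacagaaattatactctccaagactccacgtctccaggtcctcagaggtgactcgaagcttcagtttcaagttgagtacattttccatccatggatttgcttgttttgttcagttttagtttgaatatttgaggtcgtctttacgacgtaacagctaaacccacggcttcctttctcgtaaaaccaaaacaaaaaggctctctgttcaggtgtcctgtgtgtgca
Tigit, chr16:43664185-43664434, -: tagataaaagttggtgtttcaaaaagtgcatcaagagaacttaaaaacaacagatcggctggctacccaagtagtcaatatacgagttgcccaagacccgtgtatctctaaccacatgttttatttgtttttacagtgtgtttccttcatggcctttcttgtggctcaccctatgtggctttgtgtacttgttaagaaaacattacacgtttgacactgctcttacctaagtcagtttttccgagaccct
Fgl2 held the match TTCTGGGAA, 36 bases before its RefSeq start, while the Ctla4 and Tigit windows held none. RefSeq and GENCODE M21 place some of these starts differently. In GENCODE M21 the Fgl2 gene starts at chr5:21372642, so the end of the match lies inside the gene. The Ctla4 gene starts at chr1:60887000 there, so the printed Ctla4 window lies within its span. Of the 7 members with an entry in the promoter table, 1 had a match in the 250 bases before its start, against 2306 of 32851 RefSeq promoters, or 7.02%. A match of letters is a description of the window and not a binding site.

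Set against the PBS group of the same time, the levels after injection fell into several patterns. A group of genes led by Tigit, Fgl2, Ctla4 and Il10 was high 72 h after FP. Across times, in tables normalised separately, this need not hold. Mean Ctla4 was 108 CPM 72 h after FP and 131.5 CPM 168 h after PBS. Lag3 and Tigit were low 16 h after FP against PBS of that time, when Tgfb1 was already high. Nt5e was called in none of 18 comparisons, with log2 changes between -0.21 and 0.35.

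**Figure D1:**
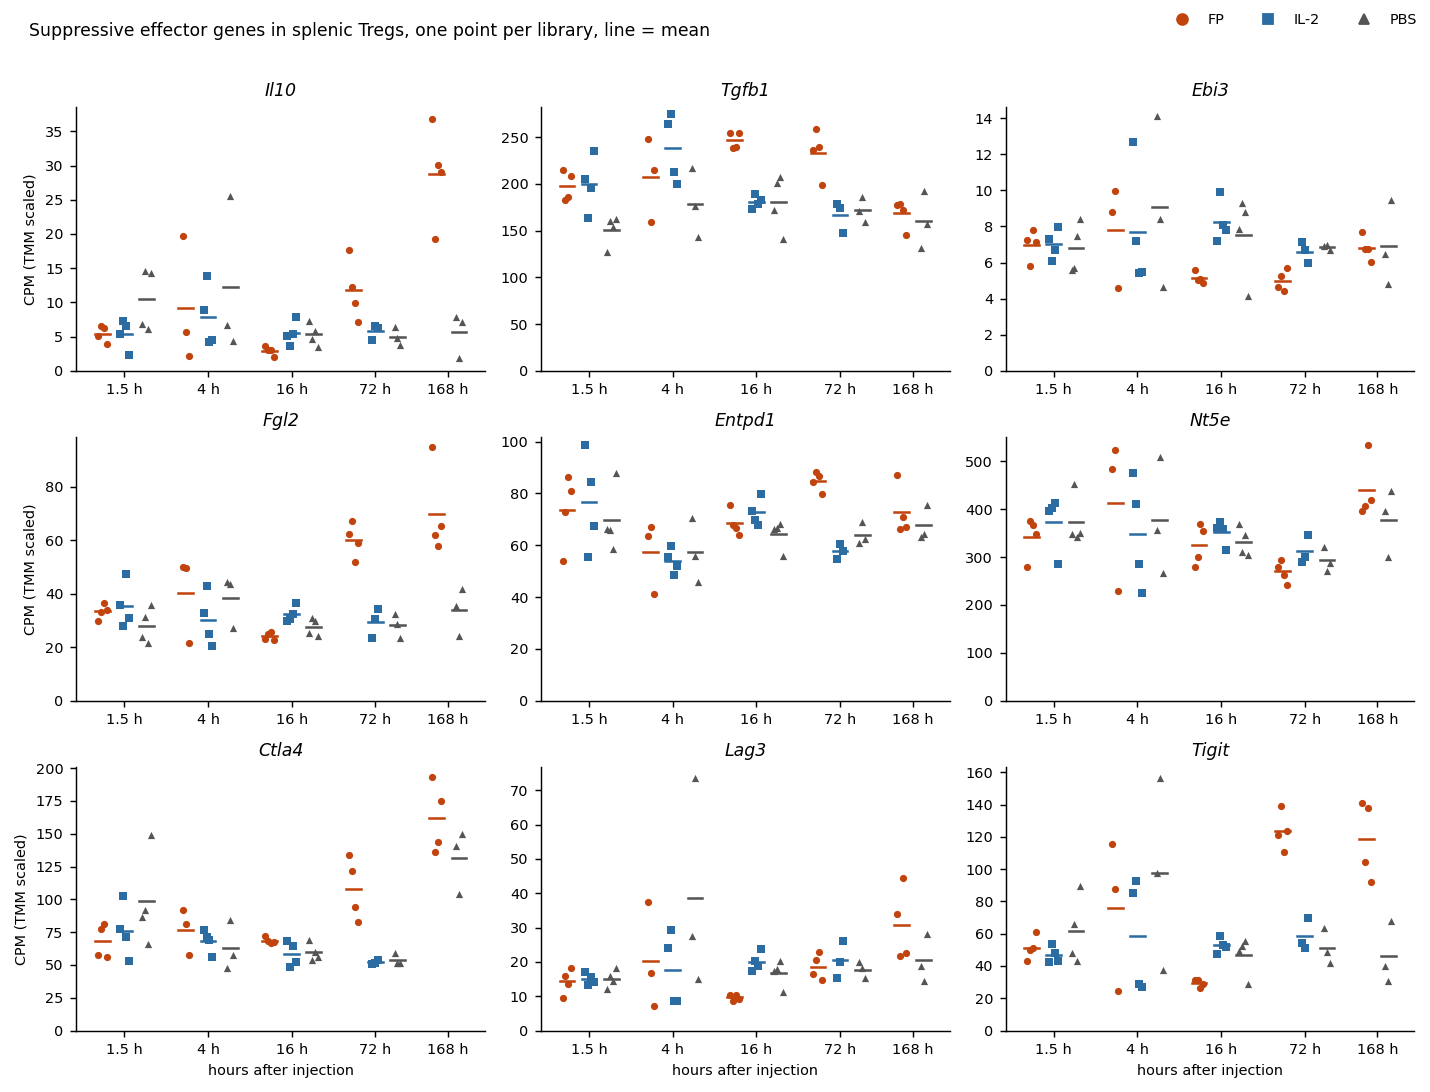
Level of each of the 9 genes in CPM (y axis, linear, from 0) at 1.5, 4, 16, 72 and 168 h after injection (x axis), with FP, IL-2 and PBS libraries as points from left to right and a line at each group's mean. Tigit lies between 111 and 139 CPM in the 4 FP libraries at 72 h and between 41.5 and 63.6 CPM in the 3 PBS libraries, and at 16 h the FP libraries lie between 26.6 and 31.5 CPM.

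At 1.5 h, a comparison that asks for the early response to the cytokine, no member was called after IL-2 or after FP. Over all genes 6.67% were called after FP (4.39% higher and 2.28% lower) and 14.2% after IL-2 (8.39% higher and 5.79% lower). Among the members, 2 had an unadjusted p below 0.05 after IL-2 and 3 after FP, and DESeq2 called 1 after IL-2 and 0 after FP. Of all 16643 genes, 6026 had an unadjusted p below 0.05 after IL-2 and 4449 after FP. DESeq2 called 3052 genes after IL-2 and 1688 after FP. The median log2 change of the members was 0.00 after IL-2 and -0.08 after FP, against -0.01 over all genes in both.
Tgfb1, the cytokine that Tregs present on their surface in latent form, had 214, 183, 185 and 208 CPM after FP and 205, 164, 196 and 235 CPM after IL-2, against 127, 160.3, 154 and 162 CPM after PBS. Every treated library lay above every PBS library. Tgfb1 was the 1 member of 9 whose groups did not overlap, where 18.7% of all genes did not overlap after FP and 25.6% after IL-2. The log2 change was 0.39 (SE 0.11, edgeR adjusted p = 0.0301) for FP and 0.40 (SE 0.11, edgeR adjusted p = 0.0150) for IL-2, short of the threshold. Tgfb1 was the gene that DESeq2 called after IL-2, with an adjusted p of 0.00463, and edgeR called it without IL-2 replicate 2, with an adjusted p of 0.00346.
Il10, the cytokine that restrains macrophages and dendritic cells, had 5.11, 6.60, 6.19 and 3.88 CPM after FP and 5.41, 7.27, 6.53 and 2.27 CPM after IL-2, against 6.79, 14.5, 6.17 and 14.3 CPM after PBS. The PBS group was split, with 2 libraries above and 2 within the treated range. The log2 change was -0.94 (95% interval -1.68 to -0.19, edgeR adjusted p = 0.0926) for FP and -0.96 (-1.70 to -0.21, edgeR adjusted p = 0.0589) for IL-2. Ctla4, the receptor that removes CD80 and CD86 from antigen-presenting cells, had a log2 change of -0.53 (-1.03 to -0.03) after FP, with the groups overlapping. The log2 changes of Ebi3, Fgl2, Entpd1, Nt5e, Lag3 and Tigit lay between -0.27 and 0.25 after FP and between -0.39 and 0.34 after IL-2, and that of Ctla4 was -0.37 after IL-2.
FP and IL-2 were set side by side directly at this time, and 0 of 9 members and 0% of all genes were called, with 0 members and 970 genes at an unadjusted p below 0.05 and 0 members called by DESeq2. The members' log2 differences lay between -0.16 and 0.13, and that of Il10 had an interval of -0.74 to 0.78, so the depth and spread here do not show that FP and IL-2 acted alike.

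Lists of other genes of the same pathways held 71 genes tested at 1.5 h, of which 10 were called after FP and 19 after IL-2. Of the TGF-beta activation and response genes, 2 of 15 rose and 3 fell after IL-2, and 1 rose and 0 fell after FP. The one called in both was Lrrc32, which encodes the GARP protein that tethers latent TGF-beta to the Treg surface, at log2 2.057 after FP and 2.21 after IL-2. Smad7, an inhibitor of TGF-beta signalling, fell after IL-2 (-0.72), as did Smad3 (-0.42), and Furin, the protease that cleaves the TGF-beta precursor, rose (0.55). Of the partners and receptors of IL-10 and IL-35, 2 of 5 rose after FP and 3 of 5 after IL-2, which were Il12rb2 (1.22), Il10ra (1.02) and Il10rb (0.40); the pair after FP were Il10ra (0.81) and Il10rb (0.38).
Of 12 transcription regulators of Il10, 3 rose after FP and 4 after IL-2 and none fell, with Ahr at 0.88, Irf4 at 0.77, Batf at 0.69 and Rbpj at 0.61 after IL-2, and with Ahr at 0.74, Irf4 at 0.52 and Rbpj at 0.34 after FP. Of 10 genes of adenosine handling, 2 rose after each treatment, the nucleoside transporter Slc29a2 (1.18 after FP and 1.47 after IL-2) and the ectonucleotidase Enpp1 (0.74 and 1.03). In the CTLA-4 and CD28 system, 1 of 10 fell after FP and 2 of 10 after IL-2, and the shared gene was Cd28, the activating receptor for the same ligands, at -1.003 after FP and -1.20 after IL-2, where Lax1 was at -0.77. In the TIGIT and CD226 system 0 of 6 were called after FP, and after IL-2 1 rose, Cd226, the activating counterpart of TIGIT (0.84), and 1 fell, Cd96 (-0.37). Of 13 genes of LAG-3 shedding and other inhibitory receptors 1 was called after each treatment, Cd5, which fell after FP (-0.70) and IL-2 (-0.95). The myeloid marker sum overlapped between the groups (721 to 1472 CPM after FP, 385 to 2112 CPM after IL-2 and 455 to 1617 CPM after PBS). The Treg marker sum, which includes Il2ra, Foxp3 and Lrrc32, was 5999 to 6544 CPM after FP and 6502 to 7044 CPM after IL-2, against 3496 to 3705 CPM after PBS.

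At 4 h the libraries of a group differed by as much as the groups did, and no member was called after IL-2 (0.652% of all genes, with 0.567% higher and 0.0851% lower), after FP (0.913%) or between FP and IL-2 (0%). No member had an unadjusted p below 0.05 in any of the 3 comparisons, and DESeq2 called none. Against PBS, 2474 genes had an unadjusted p below 0.05 after IL-2 and 3108 after FP, and DESeq2 called 774 and 1075 genes. Between FP and IL-2, 482 genes had an unadjusted p below 0.05 and DESeq2 called 4 genes.
Tigit, the receptor that binds CD155 on dendritic cells, had 116, 87.6 and 24.7 CPM after FP and 85.4, 92.8, 29.1 and 26.7 CPM after IL-2, against 97.6, 157 and 37.7 CPM after PBS. Lag3, a receptor for MHC class II, had 37.4, 16.7 and 7.16 CPM after FP and 23.97, 29.4, 8.67 and 8.70 CPM after IL-2, against 27.5, 73.5 and 15.1 CPM after PBS. The 4 lowest libraries of both genes were replicate 4 of each group and IL-2 replicate 3.
In the names of the columns a pair of tags that begin with 2 marks these 4 libraries, 1 tag the replicates 4 and the other IL-2 replicate 3, and tags that begin with 12 or read Treg mark the other 6; what they stand for is not given in the sources used here. With the tag as a factor, a fit chosen after seeing the data, Lag3 was called lower after FP (log2 -0.83, SE 0.21, edgeR adjusted p = 0.00404) and after IL-2 (-1.13, SE 0.20, edgeR adjusted p = 9.26e-05). Tigit was not called in this fit, at -0.62 after IL-2 (edgeR adjusted p = 0.0129) and -0.36 after FP (0.175). The share of all genes called with the tag is not given here, so these calls have no background beside them. Without the tag the log2 changes of Lag3 were -0.92 (-2.54 to 0.69) and -1.13 (-2.62 to 0.36). The log2 changes of Il10, Tgfb1, Ebi3, Fgl2, Entpd1, Nt5e and Ctla4 lay between -0.41 and 0.29 after FP and between -0.64 and 0.41 after IL-2, and all 9 differences of FP from IL-2 between -0.20 and 0.42. Within the tag that all 3 groups share, Lag3 had 7.16 CPM after FP and 8.70 CPM after IL-2, against 15.1 CPM after PBS, with 1 library of each. Of the partner lists, Lrrc32 rose after both treatments (log2 1.87 after FP and 1.77 after IL-2) and Enpp1 rose after FP (1.34), and no other gene of these lists was called at this time.

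**Figure D2:**
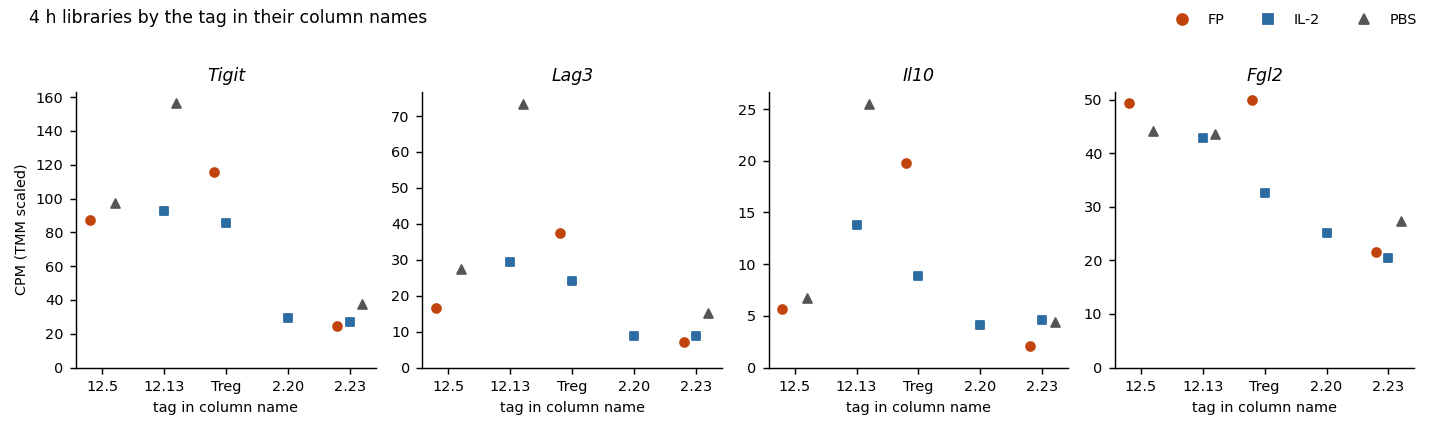
Levels in CPM (y axis, linear) of Tigit, Lag3, Il10 and Fgl2 in the 10 assigned libraries of 4 h, by the tag in the column name (x axis), with FP, IL-2 and PBS libraries as points from left to right. Tigit is at 24.7 to 37.7 CPM in the 4 libraries whose tag begins with 2 and at 85.4 to 157 CPM in the other 6.

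At 16 h FP and IL-2 had parted. After IL-2 no member was called, with 0.35% of all genes called (0.344% higher and 0.00573% lower). At an unadjusted p below 0.05 there were 2 members and 2021 of 17453 genes, and DESeq2 called 0 members and 136 genes. All 9 log2 changes after IL-2 lay between -0.03 and 0.26. After FP 1 member rose and 2 fell, where 14.4% of all genes rose and 14.3% fell (28.8% in all), so the members' share of calls is near that of all genes. The median log2 change of the members after FP was -0.19, against -0.05 over all genes. FP and PBS libraries did not overlap in 2 of 9 members, where 34.4% of all genes did not overlap in either direction.
Tgfb1 had 255, 239, 240 and 254 CPM after FP and 173, 189.6, 179 and 183 CPM after IL-2, against 172, 201, 208 and 141 CPM after PBS. All FP libraries lay above all others. It rose by log2 0.45 over PBS (SE 0.09, edgeR adjusted p = 0.00104) and by 0.45 over IL-2 (adjusted p = 0.00107).
Lag3 had 10.4, 8.71, 10.3 and 9.31 CPM after FP and 17.2, 20.3, 18.9 and 23.8 CPM after IL-2, against 17.4, 18.1, 20.1 and 11.3 CPM after PBS. The FP libraries lay below all others, and Lag3 changed by log2 -0.79 against PBS (SE 0.15, edgeR adjusted p = 0.000554) and -1.05 against IL-2 (adjusted p = 3.30e-05). Tigit had 31.1, 31.5, 26.6 and 28.7 CPM after FP and 47.6, 58.8, 53.3 and 52.0 CPM after IL-2, against 49.2, 52.6, 55.3 and 29.1 CPM after PBS.
In Tigit the FP libraries lay below all IL-2 libraries and below 3 of 4 PBS libraries, since PBS replicate 4 was within the FP range. It fell against PBS (log2 -0.66, SE 0.15, edgeR adjusted p = 0.00181), a call lost without PBS replicate 3 or without FP replicate 3, at adjusted p values of 0.0101 to 0.0114. PBS replicate 4 was also low in Lag3, Ebi3 and Il10. Without it, Il10 and Ebi3 were called lower after FP too, at adjusted p values of 0.0035 and 0.00032.
Il10 had 3.67, 3.00, 2.99 and 2.07 CPM after FP and 5.15, 3.65, 5.43 and 7.87 CPM after IL-2, against 7.24, 4.66, 5.88 and 3.50 CPM after PBS. It had the lowest mean of the 21 groups in the study after FP at 16 h, at 2.93 ± 0.658 CPM (SD, n = 4). Its log2 change against PBS was -0.86 (-1.39 to -0.32, edgeR adjusted p = 0.0125), short of the threshold, and DESeq2 called it with an adjusted p of 0.00583.

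Set against IL-2 at 16 h, FP gave 6 calls among the members, 1 higher and 5 lower, where 31.8% of all genes were called (16.8% higher and 14.9% lower). Besides Tgfb1, Lag3 and Tigit (-0.84), these were Il10, Ebi3 and Fgl2, and the members' median was -0.42 against -0.06 over all genes. FP and IL-2 libraries did not overlap in 5 of 9 members, where 48.1% of all genes did not overlap in either direction. Ebi3, the shared beta chain of IL-35 and IL-27, had 5.60, 5.02, 5.07 and 4.87 CPM after FP, against 7.20, 9.89, 8.08 and 7.80 CPM after IL-2. Fgl2, a secreted fibrinogen-like protein that acts on dendritic cells through an inhibitory Fc receptor, had 23.2, 24.9, 25.5 and 22.8 CPM after FP, against 29.7, 30.5, 32.2 and 36.5 CPM after IL-2. In both genes the groups were apart, at log2 -0.68 (SE 0.20, edgeR adjusted p = 0.00982) for Ebi3 and -0.42 (SE 0.10, adjusted p = 0.00191) for Fgl2. The call of Ebi3 was lost whichever of the 8 libraries was left out (adjusted p 0.0139 to 0.0519), that of Il10 (log2 -0.90, adjusted p = 0.00821) without 6 of 8 (0.0189 to 0.0384), and that of Fgl2 without IL-2 replicate 3 or 4 (0.0103 to 0.0125). The members not called in either comparison of FP were Ctla4 (log2 0.20 over PBS and 0.23 over IL-2), Entpd1 (0.09 and -0.09) and Nt5e (-0.03 and -0.12). The myeloid marker sum overlapped, at 412 to 840 CPM after FP and 659 to 1147 CPM after IL-2, against 609 to 957 CPM after PBS. Other marker sums stood apart after FP. B cell markers summed to 29.8 to 39.5 CPM after FP and 50.2 to 68.1 CPM after IL-2, against 43.0 to 58.8 CPM after PBS, with 2 of 9 called lower against PBS. The 1 conventional T cell marker measured of 4 had 10.0 to 11.6 CPM after FP and 13.9 to 20.0 CPM after IL-2, against 15.1 to 21.05 CPM after PBS. The Treg marker sum was 5819 to 6165 CPM after FP and 3781 to 4018 CPM after IL-2, against 3527 to 4143 CPM after PBS, with 3 of 8 called higher after FP against PBS. The part of these shifts in the members' changes was not tested.

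Partner genes after FP at 16 h split between higher and lower. In the TGF-beta list 1 of 16 rose, Lrrc32 (log2 2.04), and 6 fell, among them Itgb8 (-0.78), the integrin chain that releases active TGF-beta, Smad7 (-0.59) and the receptor Tgfbr2 (-0.52). In the IL-10 and IL-35 list 2 of 5 rose, Il12rb2 (1.01) and Il10ra (0.54), and 2 fell, Il6st (-0.61) and Il27ra (-0.41). Of the Il10 regulators 2 of 12 rose (Ahr 0.71, Rbpj 0.43) and 4 fell, with Rora at -0.84 and Prdm1, which encodes BLIMP-1, at -0.44.
Of the adenosine genes 3 of 10 rose, Slc29a2 (0.995), adenosine deaminase Ada (0.88) and Slc29a1 (0.68), and 1 fell, the adenosine receptor Adora2a (-0.66). In the TIGIT and CD226 system 0 of 6 rose and 3 fell, Cd96 (-0.96), Pvrig (-0.53) and Cd226 (-0.50). Among other inhibitory receptors 0 of 13 rose and 5 fell, with Cd200 at -0.90, Pdcd1, which encodes PD-1, at -0.81, Btla at -0.48 and Cd5 at -0.45. In the CTLA-4 and CD28 system 1 of 10 rose, Icosl (0.62), and 1 fell, Lax1 (-0.56). The median log2 change was -0.52 in the TIGIT list and -0.29 in the list of other inhibitory receptors, against -0.05 over all genes.

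At 72 h 6 of 9 members had risen after FP and none had fallen, where 17.3% of all genes rose and 13.1% fell (30.4% in all). Without PBS replicate 3 the number was 3. The median log2 change of the members was 0.44, against -0.05 over all genes. After IL-2 at the same time no member was called, as no gene was (0%), with 0 members and 82 genes at an unadjusted p below 0.05 and 0 members called by DESeq2, and the members' changes lay between -0.15 and 0.23.
Tigit had 121, 139, 111 and 124 CPM after FP and 54.2, 51.1 and 69.7 CPM after IL-2, against 63.6, 48.4 and 41.5 CPM after PBS. Fgl2 had 62.2, 67.1, 52.0 and 58.8 CPM after FP and 23.6, 30.7 and 34.4 CPM after IL-2, against 32.4, 28.8 and 23.4 CPM after PBS. Ctla4 had 134, 122, 93.9 and 82.9 CPM after FP and 51.1, 51.1 and 54.1 CPM after IL-2, against 59.2, 51.1 and 51.1 CPM after PBS.
In all 3 genes each FP library lay above each IL-2 and PBS library. Groups did not overlap, in either direction, in 46.9% of all genes against PBS and 48.5% against IL-2, and in 7 of 9 members in each. The rise over PBS was log2 1.27 (SE 0.15, edgeR adjusted p = 4.07e-05) for Tigit, 1.09 (SE 0.15, adjusted p = 0.000107) for Fgl2 and 1.005 (SE 0.15, adjusted p = 0.000185) for Ctla4. These 3 calls were kept without each of the 7 libraries in turn, at adjusted p values of at most 0.000667, 0.00132 and 0.00268. These are the genes whose promoter windows are printed above.
Il10 had 17.7, 12.2, 9.92 and 7.14 CPM after FP and 4.53, 6.60 and 6.31 CPM after IL-2, against 6.45, 4.75 and 3.73 CPM after PBS. The lowest FP library was just above the highest of the others, and the FP libraries spread widely. Il10 rose by log2 1.23 over PBS (SE 0.29, edgeR adjusted p = 0.00454), but the call was lost without PBS replicate 2 or 3 or FP replicate 1 or 2 (adjusted p 0.0103 to 0.0298). It was also lost with the FP and PBS groups fitted alone (edgeR adjusted p = 0.0117).
Entpd1, which encodes CD39, the enzyme that degrades ATP and ADP, had 84.5, 88.4, 86.8 and 79.7 CPM after FP and 54.9, 60.4 and 58.0 CPM after IL-2, against 61.0, 68.8 and 62.4 CPM after PBS. The FP libraries stood apart in a narrow band, at log2 0.40 over PBS (SE 0.08, edgeR adjusted p = 0.00116; 0.0135 without PBS replicate 3). Tgfb1 had 237, 259, 239 and 199 CPM after FP, against 171, 186 and 159 CPM after PBS. It rose by log2 0.44 (SE 0.11, adjusted p = 0.00525), a call lost in 6 of 7 fits that left out 1 library (0.011 to 0.0422). The call was also lost with the FP and PBS groups alone (edgeR adjusted p = 0.0166) and with the first run only (0.0130).
The 3 other members were not called. Nt5e, which encodes CD73, the enzyme that makes adenosine from AMP, had 280.1, 295, 263 and 241 CPM after FP, against 321, 271 and 288 CPM after PBS, overlapping, with a log2 change of -0.12 (-0.34 to 0.10). Lag3 had 16.5, 20.5, 22.8 and 14.7 CPM after FP, against 19.9, 18.1 and 15.3 CPM after PBS, again overlapping, with a log2 change of 0.07 (-0.36 to 0.49). Ebi3 had 4.63, 5.23, 4.399 and 5.70 CPM after FP, against 6.94, 6.95 and 6.69 CPM after PBS, with each FP library below each PBS library and a log2 change of -0.45 (-0.77 to -0.14, edgeR adjusted p = 0.0224). With a replicate block Ebi3 was called lower (log2 -0.53, edgeR adjusted p = 0.00896).
Against IL-2 at 72 h, FP gave 5 calls, all higher, where 30.8% of all genes were called, and the members' median was 0.55 against -0.06. The calls were Tigit (log2 1.08), Ctla4 (1.05), Fgl2 (1.02), Entpd1 (0.55) and Tgfb1 (0.48), at edgeR adjusted p values from 0.000130 for Tigit to 0.00303 for Tgfb1; that of Tgfb1 was lost in 3 fits that left out 1 library (0.0106 to 0.0282). Il10 was at 1.01 (0.38 to 1.63) with an edgeR adjusted p of 0.0128, and was called without FP replicate 4 (0.00186) and with DESeq2 (0.00161). With a replicate block it was called too (log2 1.14, edgeR adjusted p = 0.00066), and the number of calls was then 6. Deviations of same-numbered libraries correlated only weakly in this comparison (r of 0.147 to 0.239), and FP replicate 4 has no partner. Ebi3 was at -0.40 (-0.71 to -0.08), Lag3 at -0.14 (-0.56 to 0.28) and Nt5e at -0.21 (-0.42 to 0.01).
Myeloid markers moved with these results: 13 of 14 were measured, and their sum was 23.3 to 105 CPM after FP and 511 to 912 CPM after IL-2, against 489 to 1242 CPM after PBS. Csf1r had 4.16 to 25.3 CPM after FP and 118 to 305 CPM after PBS, and C1qa had 1.404 to 7.96 CPM after FP and 27.8 to 68.8 CPM after PBS; of the measured markers, Siglech was at 0 in some FP library and S100a9 in some PBS library. Markers of conventional T cells, 3 of 4 measured, summed to 7.72 to 12.7 CPM after FP, against 18.5 to 20.5 CPM after PBS, and both of those tested were called lower against PBS and against IL-2. Markers of CD8 T and NK cells, 5 of 6 measured, summed to 11.0 to 14.1 CPM after FP and 12.8 to 16.9 CPM after IL-2, against 14.7 to 16.6 CPM after PBS, with 2 of 4 called lower against PBS. The summed Treg markers ran the other way, at 5972 to 6717 CPM after FP against 3449 to 4051 CPM after PBS. Of these 8 markers, which include Il2ra and Lrrc32, 4 were called higher against PBS and 4 were not called. Their sum was also higher 1.5 h after FP and after IL-2 than after PBS, so it does not measure purity alone. The part of these shifts in the members' changes was not tested.

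**Figure D3:**
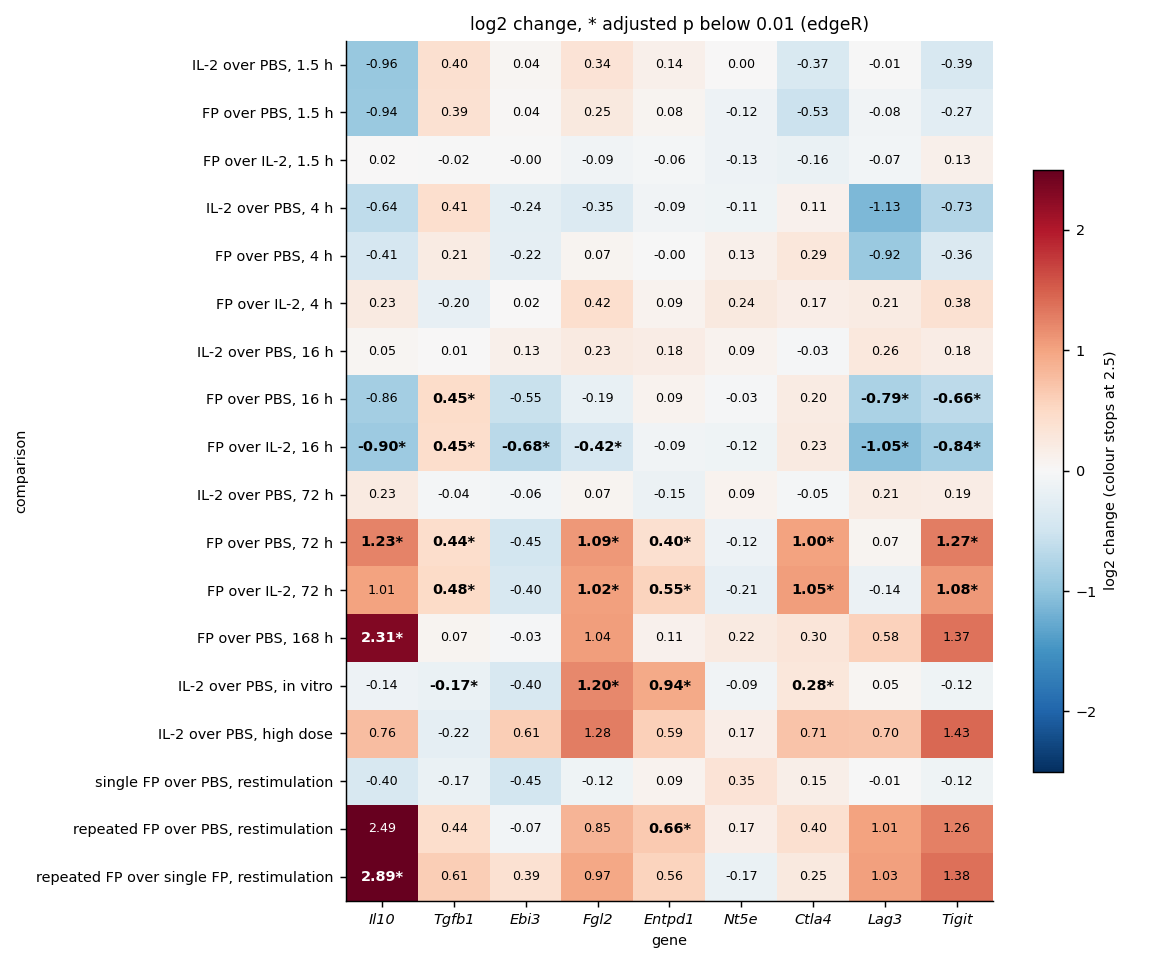
log2 change of each of the 9 genes (columns) in each of the 18 comparisons (rows, the group on top of the ratio named first), with colour from blue (lower) to red (higher) and an asterisk at an edgeR adjusted p below 0.01. The row of FP over PBS at 72 h holds 6 asterisks, all on positive changes, and the column of Nt5e holds none.

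The partners of the members at 72 h after FP were called in both directions in most lists. Of 12 regulators of Il10, 8 rose and 0 fell, with Batf at log2 1.31, Prdm1 at 1.06, Nfil3 at 1.03 and Ahr at 0.79. The list's median was 0.53 against -0.05 over all genes. In the CTLA-4 and CD28 system 7 of 10 rose and 1 fell (median 0.54), with Trat1, an adaptor that keeps CTLA-4 at the surface, at 1.39, the costimulatory receptor Icos at 1.35, its ligand Icosl at 1.12, and Cd86 at -1.13.
In the TGF-beta list 4 of 16 rose and 4 fell, with Tgfb3, a sister cytokine, at 2.65, Lrrc32 at 1.14, Furin at 0.86 and Itgb8 at -1.06. In the adenosine list 4 of 11 rose and 4 fell, with Ada at 1.07 and Enpp1 at 0.83, and with Enpp2 at -1.61 and Slc29a2 at -1.08. In the IL-10 and IL-35 list 2 of 6 rose, Il12rb2 (1.001) and Il10ra (0.79), and 2 fell, Il6st (-0.45) and Il27ra (-0.40).
Among other inhibitory receptors 3 of 13 rose, Cd200r1 (1.302), Havcr2, which encodes TIM-3 (1.19), and the LAG-3 sheddase Adam10 (0.31), and 1 fell, Cd200 (-0.68). While Tigit rose, 0 of 6 other genes of its system rose and 1 fell, Cd96 (-0.51). Cd86 and Havcr2 are also known from myeloid cells, whose markers were lower after FP in these libraries.

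The effect of FP at 72 h was then tested against its effect at 16 h in 1 model over both tables, each with its own PBS group. Of the members, 4 differed, all more positive at 72 h, where 15.6% of all genes differed and 8.6% did so in that direction. The difference of log2 changes was 2.08 for Il10 (SE 0.41, edgeR adjusted p = 0.000744), 1.93 for Tigit (SE 0.23, adjusted p = 3.59e-06), 1.28 for Fgl2 (SE 0.18, adjusted p = 2.04e-05) and 0.80 for Ctla4 (SE 0.19, adjusted p = 0.00319). For Il10, Tigit and Fgl2 the call was kept without each of 15 libraries in turn (adjusted p at most 0.00359, 3.3e-05 and 0.000133), and for Ctla4 it was lost without PBS replicate 2 or 3 or FP replicate 2 of 72 h (0.0108 to 0.0128).
Lag3 differed by 0.85 (0.30 to 1.397, adjusted p = 0.0203), and was called without FP replicate 4 of 72 h or PBS replicate 4 of 16 h (0.00492 to 0.00698). Tgfb1, at log2 0.44 and 0.45 over PBS at the later and the earlier time, had a difference of -0.02 (-0.32 to 0.28). The effect of FP at 16 h against that at 1.5 h gave 0 member calls (4.98% of all genes, 3 members at an unadjusted p below 0.05, 0 by DESeq2), with the largest differences in Ctla4 (0.76, 0.20 to 1.31) and Lag3 (-0.68, -1.19 to -0.17). The effect of IL-2 at 16 h against that at 1.5 h also gave 0 (12.8% of all genes, 3 members at an unadjusted p below 0.05, 0 by DESeq2).

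**Figure D4:**
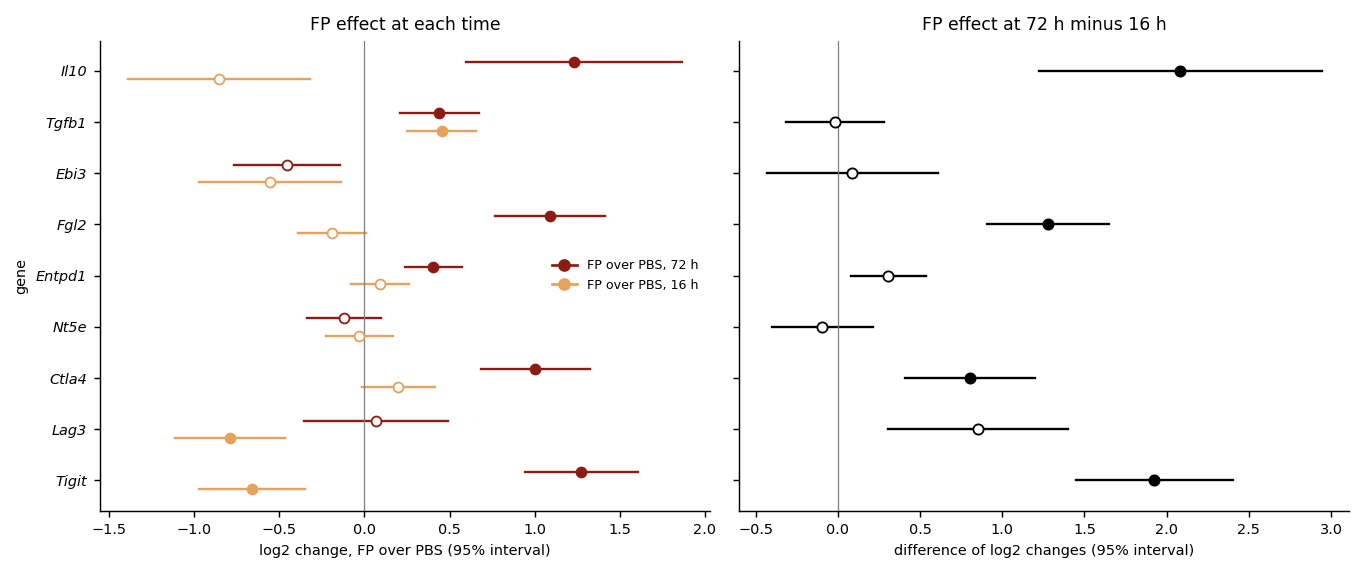
Left, log2 change of FP over PBS (x axis) for each gene (y axis) at 72 h and 16 h; right, the effect at 72 h minus that at 16 h. Points are estimates from edgeR, bars are 95% intervals, and filled points passed an adjusted p of 0.01; the differences of Il10, Fgl2, Ctla4 and Tigit are filled, and that of Tgfb1 lies at -0.02.

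At 168 h Il10 was the member that rose after FP, and Tigit and Fgl2 stood apart from PBS without passing the threshold. The share of all genes called was 1.21%, with 0.201% higher. The median log2 change of the members was 0.30, against -0.00 over all genes. FP and PBS libraries did not overlap in 3 of 9 members, where 14.6% of all genes did not overlap in either direction.
Il10 had 36.8, 19.3, 30.1 and 29.1 CPM after FP, against 7.85, 1.88 and 7.19 CPM after PBS. The groups were far apart, at log2 2.31 (SE 0.38, edgeR adjusted p = 0.00768), or a 4.97-fold rise. The call was lost without PBS replicate 1 or 3 or FP replicate 1, 2 or 4 (adjusted p 0.0105 to 0.0276).
Tigit had 141, 105, 138 and 92.0 CPM after FP, against 39.8, 30.4 and 67.8 CPM after PBS. Fgl2 had 94.8, 61.7, 57.6 and 65.2 CPM after FP, against 35.4, 24.1 and 41.9 CPM after PBS. In both genes all FP libraries were above all PBS libraries, at log2 1.37 (0.82 to 1.92, edgeR adjusted p = 0.0147) and 1.04 (0.58 to 1.50, adjusted p = 0.0257); edgeR called Tigit without PBS replicate 3 (0.00143), and DESeq2 called both.
Ctla4 had 194, 136, 144 and 175 CPM after FP, against 140.5, 104 and 149.9 CPM after PBS, overlapping, at log2 0.30 (-0.03 to 0.63). Its effect at 168 h minus that at 72 h was -0.70 (-1.18 to -0.22, edgeR adjusted p = 0.0400). That of Il10 was 1.09 (0.00 to 2.17), and no member was called in this difference (8.6% of all genes, 2 members at an unadjusted p below 0.05, 0 by DESeq2).
Entpd1, called at 72 h, had 87.1, 66.1, 71.1 and 67.0 CPM after FP, against 63.1, 64.4 and 75.6 CPM after PBS, overlapping, at log2 0.11. The other members were not called either, with Lag3 at 0.58 (-0.04 to 1.19), Nt5e at 0.22, Tgfb1 at 0.07 and Ebi3 at -0.03. Of the partner lists, Il10ra (log2 0.83), Adora2a (0.69) and Cd200r1 (0.97) rose and no other gene was called. The myeloid marker sum, over 10 of 14 measured, was 31.5 to 50.3 CPM after FP, against 328 to 479 CPM after PBS, with none at 0. Erythroid and platelet markers, 4 of 7 measured, summed to 6.42 to 13.1 CPM after FP, against 14.05 to 16.4 CPM after PBS, and the part of either in these results was not tested.

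In vitro, where IL-2 met the Tregs for 1.5 h outside the animal and libraries varied least, 4 of 9 members were called, 3 higher and 1 lower. Of all genes 7.4% rose and 6.54% fell (13.9% in all). The median log2 change of the members was -0.09, against -0.00 over all genes. IL-2 and PBS libraries did not overlap in 7 of 9 members, where 31.6% of all genes did not overlap in either direction.
Fgl2 had 59.2, 59.5 and 57.0 CPM with IL-2, against 24.9, 23.2 and 28.6 CPM with PBS. Entpd1 had 46.4, 47.5 and 45.8 CPM with IL-2, against 21.4, 25.0 and 26.4 CPM with PBS. Both genes were far apart between the groups, at log2 1.20 (SE 0.06, edgeR adjusted p = 2.67e-14) and 0.94 (SE 0.07, adjusted p = 1.01e-11).
Ctla4 had 211, 229 and 209 CPM with IL-2, against 182, 171 and 179.9 CPM with PBS, a separation at log2 0.28 (SE 0.04, edgeR adjusted p = 2.57e-06). Tgfb1 had 275, 279.9 and 267 CPM with IL-2, against 314, 318 and 294 CPM with PBS, and was lower by a small amount (log2 -0.17, SE 0.04, adjusted p = 0.000896, and 0.0102 without IL-2 replicate 3). Nt5e, Lag3 and Tigit were between -0.12 and 0.05 on the log2 scale and were not called. Ebi3 had 2.95, 2.65 and 3.18 CPM with IL-2, against 3.91, 3.97 and 3.70 CPM with PBS, with each IL-2 library below each PBS library, at log2 -0.40 (-0.73 to -0.07, edgeR adjusted p = 0.0906), short of the threshold.
Il10 had 40.6, 41.0 and 41.7 CPM with IL-2, against 46.1, 44.9 and 44.5 CPM with PBS. The levels of both in vitro groups were high among all 21 groups, since the in vivo PBS libraries held 1.88 to 25.5 CPM in tables normalised separately. The in vitro PBS libraries of Entpd1 (21.4 to 26.4 CPM) were in turn below all in vivo PBS libraries (40.1 to 87.7 CPM). The log2 change of Il10 was -0.14 (-0.24 to -0.03, edgeR adjusted p = 0.0765).
The IL-2 effect in vitro was tested against that 1.5 h after injection, and 0 members differed at the threshold (4.96% of all genes). At an unadjusted p below 0.05 there were 4, and DESeq2 called 2, Fgl2 and Tgfb1, among 1187 genes in all. The differences were 0.85 for Fgl2 (0.36 to 1.34, edgeR adjusted p = 0.0257), 0.80 for Entpd1 (0.27 to 1.33, adjusted p = 0.0511) and -0.58 for Tgfb1 (-0.89 to -0.27, adjusted p = 0.0153).
Of the Il10 regulators, 9 of 12 rose in vitro and 2 fell, with Nfil3 at log2 1.03, Irf4 at 0.75, Rbpj at 0.64 and Prdm1 at 0.55; Il10 itself was not called. In the TGF-beta list 6 of 15 rose and 4 fell, with Tgfbr1 at 0.89, Furin at 0.72, and Lrrc32 and Itgb8 both at 0.65. In the CTLA-4 and CD28 system 3 of 10 rose and 2 fell, with Icos at 0.67, Cd28 at -0.32, Cd80 at 0.44 and Trat1 at 0.35.
Among other inhibitory receptors 4 of 13 rose and 3 fell, with Cd200 at 1.58, Cd200r1 at 0.90, Cd5 at -0.66 and Pdcd1 at -0.42. In the IL-10 and IL-35 list 2 of 5 rose, Il12rb2 (1.54) and Il10ra (0.98), and Il6st fell (-0.37). In the TIGIT system 2 of 6 rose, Cd226 (0.67) and Pvr (0.45), and in the adenosine list 2 of 11 rose and 2 fell, with Enpp1 at 0.73, Adk at -0.38, Adora2a at -0.33 and Slc29a1 at 0.24. Myeloid markers summed to 213 to 226 CPM with IL-2 and 200 to 210 CPM with PBS, over 11 of 14 measured.

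**Figure D5:**
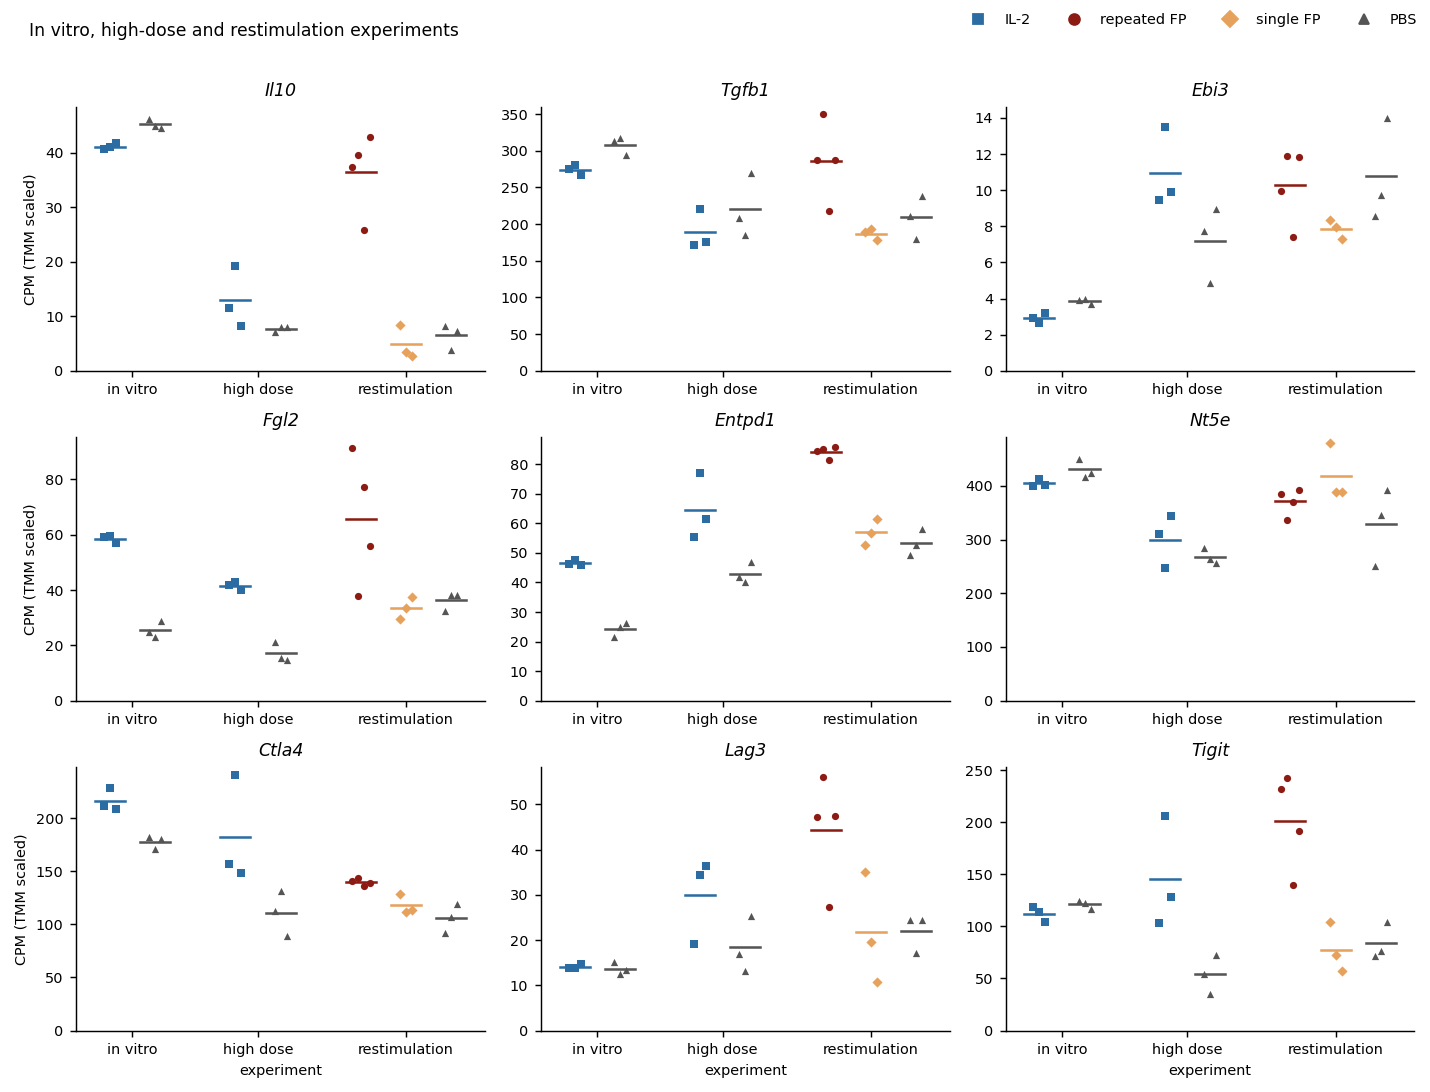
Level of each of the 9 genes in CPM (y axis, linear, from 0) in the in vitro, high-dose and restimulation experiments (x axis), 1 point per library and a line at each group's mean, with PBS to the right of the treated groups. Il10 lies between 25.7 and 42.8 CPM in the 4 repeated FP libraries and between 2.75 and 8.33 CPM in the 3 single FP libraries.

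After high-dose IL-2 no member was called, and 0% of all genes were. At an unadjusted p below 0.05 there were 4 members and 2743 genes, and DESeq2 called 2 members, Fgl2 and Tigit, and 549 genes. Even so, 6 of 9 members lay above PBS in every library, where 24.4% of all genes did not overlap in either direction, and the members' median log2 change was 0.70 against -0.04 over all genes.
Fgl2 had 41.9, 42.8 and 40.1 CPM after IL-2, against 21.1, 15.4 and 14.9 CPM after PBS. Tigit had 103, 205 and 128 CPM after IL-2, against 54.6, 34.9 and 72.7 CPM after PBS. Neither gene's groups overlapped, at log2 1.28 (0.83 to 1.73, edgeR adjusted p = 0.0246) for Fgl2 and 1.43 (0.57 to 2.29, adjusted p = 0.118) for Tigit.
Ctla4 had 157, 241 and 148 CPM after IL-2, against 112, 131 and 89.5 CPM after PBS. Entpd1 had 55.4, 76.9 and 61.6 CPM after IL-2, against 42.0, 40.1 and 47.0 CPM after PBS. In both the groups were apart, as they were in Il10 (log2 0.76, -0.03 to 1.56) and Ebi3 (0.61, -0.11 to 1.33), with edgeR adjusted p values of 0.172 to 0.386 over these 4 genes. Lag3 was at 0.70 (-0.11 to 1.51), Nt5e at 0.17 and Tgfb1 at -0.22.
IL-2 replicate 2 was the highest of the 3 IL-2 libraries in Il10, Ebi3, Fgl2, Entpd1, Ctla4 and Tigit. No gene of the partner lists was called. The myeloid marker sum, over 10 of 14 measured, was 48.5 to 69.2 CPM after IL-2, against 110 to 124 CPM after PBS. The 1 conventional T cell marker measured had 12.3 to 13.3 CPM after IL-2, against 15.2 to 17.01 CPM after PBS, and plasma cell markers, 2 of 5 measured, summed to 1.60 to 2.232 CPM after IL-2, against 3.322 to 4.74 CPM after PBS. The Treg marker sum was 3967 to 4312 CPM after IL-2, against 3532 to 3583 CPM after PBS, and the part of these shifts was not tested.

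The restimulation experiment set FP given after FP beside FP given after PBS. No group received FP and then PBS, so a lasting effect of the first injection cannot be told apart from the response to the second. In this experiment the library labelled single FP replicate 1 stood apart from the other 2 of its group. Its Treg marker sum, which includes Il2ra and Lrrc32, was 3828 CPM, against 6207 and 5951 CPM in single FP replicates 2 and 3, and next to 5927 to 6684 CPM after repeated FP and 3929 to 4022 CPM after PBS. It was also the highest of the 3 in Il10, Lag3 and Tigit. Calls and log2 changes are therefore given with it and, in part, without it, and overlaps of groups only with it.
With all 3 libraries no member was called 1.5 h after a single FP injection, with 0.0111% of all genes called. At an unadjusted p below 0.05 there were 0 members and 1608 genes, and DESeq2 called 0 members and 143 genes. The members' median log2 change was -0.12, against 0.00 over all genes, and Il10 was at -0.40 (-1.31 to 0.51), within a range over all members of -0.45 for Ebi3 to 0.35 for Nt5e. Without single FP replicate 1 again no member was called, while 31 genes were (27 higher), against 2 with it, and Il10 was at -1.04 (edgeR adjusted p = 0.229), Lag3 at -0.54 and Tigit at -0.38. After repeated FP 1 member was called against PBS (0.629% of all genes, 0.373% higher) and 1 against single FP (0.585%, 0.44% higher), and the members' medians were 0.66 and 0.61, against -0.02 and -0.01 over all genes.
Il10 had 37.4, 39.6, 25.7 and 42.8 CPM after repeated FP and 8.33, 3.51 and 2.75 CPM after single FP, against 8.27, 3.90 and 7.24 CPM after PBS. The 4 repeated FP libraries lay well above all 6 others. Il10 rose by log2 2.89 over single FP (SE 0.42, edgeR adjusted p = 0.00779), or 7.42-fold, and stood at 2.49 over PBS (1.59 to 3.40, adjusted p = 0.0123). The call over single FP was lost in 5 of 7 fits that left out 1 library (0.0207 to 0.0505), but without single FP replicate 1 it was kept (log2 3.54, SE 0.36, edgeR adjusted p = 0.00601); the call over PBS, missed here, was made by DESeq2.
Entpd1 had 84.4, 85.1, 81.4 and 85.9 CPM after repeated FP and 52.8, 56.7 and 61.4 CPM after single FP, against 49.4, 52.6 and 58.2 CPM after PBS. The repeated FP libraries formed a narrow band above the rest, and Entpd1 rose over PBS by log2 0.66 (SE 0.10, edgeR adjusted p = 0.00938). This call, close to the threshold, was lost in 7 of 7 fits that left out 1 library (0.0149 to 0.0551).
Tigit had 231, 242, 140.1 and 191 CPM after repeated FP and 104, 72.1 and 56.8 CPM after single FP, against 71.2, 76.6 and 104 CPM after PBS. All repeated FP libraries were above all others, at log2 1.26 over PBS (0.69 to 1.83, edgeR adjusted p = 0.0248), and DESeq2 called it in both comparisons. Fgl2 had 91.5, 37.8, 77.3 and 56.0 CPM after repeated FP and 29.6, 33.5 and 37.5 CPM after single FP, against 32.5, 38.1 and 38.4 CPM after PBS.
In Fgl2 repeated FP replicate 2 fell within the PBS range while the 3 others were above it. The log2 change over PBS was 0.85 (0.28 to 1.42, edgeR adjusted p = 0.0911). Lag3 had 47.2, 56.0, 27.2 and 47.4 CPM after repeated FP and 35.2, 19.6 and 10.7 CPM after single FP, against 24.5, 17.2 and 24.5 CPM after PBS, and Ctla4 had 141, 144, 136 and 139 CPM after repeated FP, against 92.0, 107 and 119 CPM after PBS.
Both genes were higher in every repeated FP library than in every PBS library, at log2 1.01 (0.19 to 1.83) for Lag3 and 0.40 (0.15 to 0.65) for Ctla4, and neither was called. Repeated FP libraries did not overlap with PBS in 5 of 9 members and with single FP in 6 of 9. Of all genes, 17.4% and 16.8% did not overlap in either direction. Tgfb1 was at 0.44 (0.08 to 0.81), Ebi3 at -0.07 and Nt5e at 0.17, all with overlapping groups. Over single FP, log2 differences besides that of Il10 ran between -0.17 for Nt5e and 1.38 for Tigit, with Fgl2 at 0.97, Lag3 at 1.03, Tgfb1 at 0.61, Entpd1 at 0.56, Ebi3 at 0.39 and Ctla4 at 0.25, none called by edgeR. Without single FP replicate 1, Il10 was the 1 member called over single FP, among 19 genes (14 higher), against 105 genes with it. Tigit was then at 1.64 (edgeR adjusted p = 0.0308) and Lag3 at 1.56 (0.0659). Fgl2 was at 0.89, Tgfb1 at 0.62, Entpd1 at 0.51, Ebi3 at 0.43, Ctla4 at 0.31 and Nt5e at -0.07. Of the partner lists, Icosl rose after repeated FP over PBS (log2 1.47) and over single FP (1.21), and the Il10 regulator Gata3 rose over single FP (0.90).
The single FP effect here was set against the FP effect of the 1.5 h table in 1 model, and 0 members and 0% of all genes differed, with 3 members at an unadjusted p below 0.05 and 0 called by DESeq2, and without single FP replicate 1 again 0 members differed. The myeloid marker sum, over 10 of 14 measured, was 41.6 to 107 CPM after repeated FP and 210 to 230 CPM after single FP, against 112 to 211 CPM after PBS. Conventional T cell markers, 2 of 4 measured, summed to 12.7 to 14.9 CPM after repeated FP and 14.2 to 19.7 CPM after single FP, against 18.5 to 20.5 CPM after PBS. B cell markers summed to 22.8 to 29.2 CPM after repeated FP and 26.7 to 31.4 CPM after single FP, against 29.6 to 35.9 CPM after PBS, and the part of these shifts was not tested.

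By mean level over the 21 groups, in tables normalised separately, Tigit was highest after repeated FP (201 ± 46.4 CPM, SD, n = 4), then after high-dose IL-2 (145 ± 53.4, n = 3) and 72 h after FP (124 ± 11.8, n = 4), neighbours whose libraries overlap. It was lowest 16 h after FP, at 29.5 ± 2.29 CPM (n = 4). Il10 was highest in vitro with PBS (45.2 ± 0.859 CPM, n = 3), followed by in vitro IL-2, repeated FP (36.4 ± 7.44, n = 4) and FP at 168 h (28.8 ± 7.22, n = 4), and the last pair overlap. Fgl2 was highest 168 h after FP (69.8 ± 16.9 CPM, n = 4), and repeated FP, FP at 72 h (60.0 ± 6.35, n = 4) and in vitro IL-2 (58.5 ± 1.36, n = 3) lay within its spread.
Over the 18 comparisons, Tgfb1 was called higher in 4 and lower in 1, Entpd1 higher in 4 and lower in 0, Il10 higher in 3 and lower in 1, Fgl2 higher in 3 and lower in 1, and Ctla4 higher in 3 and lower in 0. Tigit was called higher in 2 and lower in 2, Lag3 lower in 2 and higher in 0, Ebi3 lower in 1 and higher in 0. Several of these comparisons share their PBS libraries.

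The genes most like each member, given for all but Tigit, were those with the highest Pearson r over the 73 assigned libraries, of log2 CPM centred on each table, among 9678 genes. Libraries of a table fall into shared treatment groups and differ in depth, so r is a description with no test. Differences between libraries of a group also enter r, such as those of Tigit and Lag3 by tag at 4 h. Tgfb1 was most like Fasn (r = 0.87), Sf3a2 (0.86) and Rara (0.86), and Fgl2 most like Fam129a (0.84), Icos (0.82) and Cd200r1 (0.80). Lag3 was most like Syt11, Adora2a and Rin2 (0.82 each), Il10 most like Ccrl2 (0.81), Fosl2 (0.79) and Fasl (0.76), and Ctla4 most like Ifngr1 (0.81), Cdkn2c (0.75) and Hmgb1 (0.74). Ebi3 was most like Calhm2 (0.79), Tor3a (0.78) and Zc3h12d (0.76), Entpd1 most like Rnf19b (0.76), Selplg (0.76) and Fam129a (0.74), and Nt5e most like Sccpdh (0.74), Tbc1d4 (0.70) and Sh3gl3 (0.69). Within the set the pairs with the highest r were Il10 with Tigit (0.82), Lag3 with Tigit (0.82) and Fgl2 with Entpd1 (0.78), and the lowest was Tgfb1 with Nt5e (-0.12).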

How the data were processed

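RNA of sorted splenic Tregs was measured in 91 samples, which are 75 libraries, since the 72 h and in vitro libraries were sequenced in a pair of runs each. The authors deposited counts of reads per gene. Per the series design text, reads were mapped to GRCm38 and counted on GENCODE M13, and the submitters' processing notes name STAR 2.5.0 and featureCounts 1.5.0; whether counting used strand is not given in the sources used here. Per the labels, libraries were made from total RNA after ribosomal RNA removal. In each deposited table every gene has at least 0.5 CPM in at least 3 columns, so a gene silent in all libraries of a table is not analysed here.

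The counts were used as deposited, with the runs of a library summed (the runs differed by a chi-square per degree of freedom of 1.03 to 1.08 over 16 pairs, against 1.84 to 303 over 147 pairs of libraries of a group). Groups came from the labels. Each table was fitted on its own over all its groups with edgeR 4.0.16 and limma 3.58.1 in R 4.3.3 (filterByExpr, TMM scaling, quasi-likelihood test), p-values were adjusted by Benjamini and Hochberg over all genes tested, and calls used 0.01, the threshold in the series design text. Correlations between genes and between libraries used log2 CPM with a prior count of 2. DESeq2 1.42.0, RLE scaling, no low-count filter, a replicate block, a lane covariate, the compared groups alone, the 2 contradictory 4 h libraries by either label, the first run only and leaving out each library were the alternatives. Effects of different tables were compared in 1 model with 1 mean per group of each table and no further term, so each table kept its own PBS libraries. The scripts were tested on simulated data.

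Replicate numbers were checked for pairing by correlating the deviations of same-numbered libraries from their group means. Every pair was above 0.1 for IL-2 with PBS at 4 h (0.477 to 0.901) and 72 h (0.482 to 0.614), FP with PBS at 4 h (0.158 to 0.854) and FP with IL-2 at 72 h (0.147 to 0.239), a hint from the data, and not elsewhere. In those 4 comparisons the block changed no count of members by more than 1.5 times and added the call of Il10 for FP with IL-2 at 72 h. All 9 members are given in each of the 18 comparisons, those not called partly by their range. Of each pathway list up to 4 called genes with the largest change are named, except for FP over IL-2, where only members are given, and of like genes the 3 with the highest r among those with a mean of at least 5 CPM. The like genes of Tigit are not reported here. The members, lists and tests were chosen with earlier results of these data known. Promoters came from RefSeq (GRCm38.p6).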

Additional observations from a re-analysis of the deposited data

Results flagged for a closer look

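The effect of FP at 72 h was more positive than its effect at 16 h, by a test of the difference itself, in 4 members: by 2.08 on the log2 scale in Il10, 1.93 in Tigit, 1.28 in Fgl2 and 0.80 in Ctla4 (edgeR adjusted p below the threshold, 8 FP and 7 PBS libraries). In the levels of single libraries, 90 groups of members were searched for a value far from the others of its group, and 4 were found, where chance gives about 1 group in 20. These were Entpd1 in PBS replicate 4 at 16 h (55.8 CPM, low), Nt5e in IL-2 replicate 4 at 1.5 h (286 CPM, low), Nt5e in PBS replicate 2 at 1.5 h (453 CPM, high) and Nt5e in FP replicate 3 at 168 h (535 CPM, high). In the unassigned 4 h library whose title names FP and whose injected-molecule label names PBS, Tgfb1 had 225 CPM, above the 3 PBS libraries of that table (143 to 217 CPM) and within the FP range (159 to 248 CPM). Its TMM scaling included the unassigned libraries and that of the assigned libraries did not, so the small gap to PBS is across different scalings.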

How the results depend on the processing

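No member changed direction while called under any alternative. Of the members' log2 changes recomputed, 3011 kept their direction and side of the threshold, 51 passed it newly, 65 no longer passed, and 176 changed sign without being called under either setting. The number of members called moved by more than 1.5 times as follows. With an adjusted p of 0.05 it was 1 for IL-2 and 1 for FP at 1.5 h (0 at 0.01), 5 for FP against PBS at 16 h (3), 3 for FP at 168 h (1), 1 at high dose (0), 3 for repeated FP against PBS and 3 against single FP (1 each), 1 for the FP effect at 168 h minus 72 h (0) and 2 for the IL-2 effect in vitro minus 1.5 h (0). With DESeq2 it was 1 for IL-2 at 1.5 h, 3 for FP at 168 h, 2 at high dose, 3 for each comparison of repeated FP and 2 for in vitro minus 1.5 h. Over all genes DESeq2 also called more than edgeR in each of these. The counts were 3052 against 2360, 520 against 210, 549 against 0, 736 against 113 (over PBS), 547 against 105 (over single FP) and 1187 against 814. All-gene counts under the other settings are not given here. With a replicate block it was 3 for FP at 168 h, 1 for 168 h minus 72 h and 0 for each comparison of repeated FP, and the block moved no other count of members this far. With the column-name tag as a factor, chosen after seeing the data, it was 1 for IL-2 and 1 for FP at 4 h, and with the 2 compared groups alone it was 0 for repeated against single FP.

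Leaving out each library in turn gave 0 to 1 for IL-2 at 1.5 h, at 16 h 2 to 5 for FP over PBS and 3 to 5 for FP over IL-2 (6 with all), 3 to 6 for FP against PBS at 72 h, 0 to 1 for FP at 168 h, 0 in all fits for repeated FP against PBS, 0 to 1 against single FP, 0 to 1 for the IL-2 effect at 16 h minus 1.5 h and 0 to 1 for in vitro minus 1.5 h. The cause of these shifts was not tested, except that fewer libraries leave fewer degrees of freedom. The counts of 0 at high dose and 4 h come with the largest spread between libraries, and the low-count genes Il10 and Ebi3 have the widest intervals at 16 h.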

Other observations

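The 2 unassigned libraries of 4 h are given as values only. They were scaled by TMM together with the assigned libraries, a scaling that differs from that of the other 4 h values. The library titled PBS whose injected molecule is given as FP had 11.3 CPM of Il10, 133 of Tgfb1, 7.44 of Ebi3, 36.9 of Fgl2, 62.0 of Entpd1, 369.7 of Nt5e, 80.3 of Ctla4, 20.4 of Lag3 and 57.5 of Tigit. The library titled FP whose injected molecule is given as PBS had 5.15 CPM of Il10, 225 of Tgfb1, 4.21 of Ebi3, 23.4 of Fgl2, 41.3 of Entpd1, 285 of Nt5e, 64.6 of Ctla4, 11.0 of Lag3 and 37.8 of Tigit. With these libraries placed by title or by injected molecule, the number of members called at 4 h stayed at 0.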
